A study of Mus musculus with 24 samples.

Results

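The 45 imprinted genes examined here fall into 22 clusters of the mouse genome, and 49 of the 20726 listed windows of differential 5-hydroxymethylcytosine (5hmC) were at one of them. A window was taken as a member's where it lay inside the GRCm38 gene span, within 20 kb of it, or carried the Ensembl ID of the gene in the deposited list. Of the 49 windows, 21 lay inside a member, 8 lay within 20 kb of one and 20 were farther away and carried its ID alone. 5hmC was higher in the Wt25 line in 26 windows and higher in the AA10 line in 23. The 17 members with a window lay in 13 clusters, and by this rule no cluster had member windows of both directions. Clusters with 1 window could not have both, and 72.1% of all genes with at least 2 windows also had a single direction.

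Both lines were mouse embryonic stem cells (ESCs) of a mixed C57BL/6J-129V background that lack Tet1, 2 and 3, the enzymes that oxidize 5-methylcytosine to 5hmC, and were grown in 2i/LIF medium. Human Flag-tagged Tet3 was put back with a lentivirus and puromycin selection, as the wild-type protein in Wt25 and with alanine in place of 2 serines that cdk5 phosphorylates in AA10. Each line is 1 clone, so the form of Tet3 and differences between clones cannot be told apart. 5hmC-DIP, which recovers DNA fragments carrying 5hmC with an antibody, gave 3 libraries per line, and the comparison asks where the 5hmC level depends on the form of Tet3. The deposited lists hold the positions of windows that passed the authors' comparison in each direction, without reads, fold changes or P-values, so the depth behind a window, its error and the spread between libraries are unknown, and the ESC label could not be checked against markers.

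Imprinted genes are expressed from the copy of one parent. Their choice of copy is set in the germline by a control region that carries DNA methylation on the maternal or the paternal chromosome, and in the early embryo the zinc finger protein ZFP57 binds its methylated motif there and helps to keep the mark. Tet enzymes act on such methylation when imprints are erased in germ cells, and mouse ESCs in culture are known to lose or gain imprints.

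Sequences of 8 windows are given because they lie nearest to a control region, belong to the clusters with most windows in their direction, or, for Igf2, stand close to the first start of a fetal growth factor, a choice made after the values were seen. Each is the 198 bases listed for the window, on the plus strand of GRCm38, with CpG dinucleotides in capitals. The first 4 are windows higher in Wt25: upstream of Mcts2 (chr2:152686803-152687000, intron of H13, 20 CpGs), the first exon of Nnat (chr2:157560403-157560600, coding, 22 CpGs), upstream of an inner start of Grb10 (chr11:12026803-12027000, intron, 9 CpGs) and an intron of Igf2 (chr7:142664803-142665000, 5 CpGs). The last 4 are windows higher in AA10: upstream of an inner start of Plagl1 (chr10:13089803-13090000, intron, 6 CpGs), upstream of the long Zdbf2 transcript (chr1:63198403-63198600, intron of Gpr1, 5 CpGs), an intron of Sfmbt2 (chr2:10375603-10375800, 4 CpGs) and an intron of Sgce (chr6:4731803-4732000, 3 CpGs).
Mcts2: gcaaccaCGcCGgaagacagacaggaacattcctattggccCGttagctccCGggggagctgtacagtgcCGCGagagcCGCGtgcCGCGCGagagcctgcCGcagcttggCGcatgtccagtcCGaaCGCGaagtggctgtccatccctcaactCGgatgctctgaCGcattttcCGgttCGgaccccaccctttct
Nnat: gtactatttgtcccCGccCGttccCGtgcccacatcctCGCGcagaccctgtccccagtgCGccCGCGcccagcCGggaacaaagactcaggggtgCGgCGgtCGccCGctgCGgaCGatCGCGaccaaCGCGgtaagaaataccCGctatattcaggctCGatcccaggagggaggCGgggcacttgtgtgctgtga
Grb10: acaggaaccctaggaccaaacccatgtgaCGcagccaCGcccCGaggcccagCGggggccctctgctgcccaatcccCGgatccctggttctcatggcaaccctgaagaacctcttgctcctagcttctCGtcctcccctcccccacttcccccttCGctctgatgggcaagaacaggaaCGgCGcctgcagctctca
Igf2: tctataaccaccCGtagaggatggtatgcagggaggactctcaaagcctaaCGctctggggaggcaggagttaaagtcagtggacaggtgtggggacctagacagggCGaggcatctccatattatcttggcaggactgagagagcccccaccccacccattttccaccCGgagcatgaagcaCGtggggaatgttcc
Plagl1: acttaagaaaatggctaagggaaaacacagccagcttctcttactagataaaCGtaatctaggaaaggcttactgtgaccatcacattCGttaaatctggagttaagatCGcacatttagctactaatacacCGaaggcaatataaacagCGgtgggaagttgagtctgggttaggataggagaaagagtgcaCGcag
Zdbf2: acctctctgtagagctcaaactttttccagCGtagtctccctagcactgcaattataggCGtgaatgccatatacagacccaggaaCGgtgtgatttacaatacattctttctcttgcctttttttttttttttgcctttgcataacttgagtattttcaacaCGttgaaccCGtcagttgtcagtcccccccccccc
Sfmbt2: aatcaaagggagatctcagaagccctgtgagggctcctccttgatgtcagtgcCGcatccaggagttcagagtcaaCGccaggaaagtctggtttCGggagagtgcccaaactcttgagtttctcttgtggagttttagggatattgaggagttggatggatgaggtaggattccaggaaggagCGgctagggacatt
Sgce: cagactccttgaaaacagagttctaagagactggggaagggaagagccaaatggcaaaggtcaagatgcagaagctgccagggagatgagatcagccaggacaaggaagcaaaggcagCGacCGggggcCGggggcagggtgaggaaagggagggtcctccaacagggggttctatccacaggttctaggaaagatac

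The capitals crowd the windows at Mcts2 and Nnat and are sparse in those at Sfmbt2 and Sgce. The Mcts2, Nnat and Grb10 windows sit in CpG-rich sequence, taken as 1 kb around the window with at least 50% G and C and a CpG observed to expected ratio of at least 0.6. The other 5 printed windows do not.

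A window of either direction was found at 17 members (37.8%), and the same rule gave 39.9% of all genes. At least 1 window higher in Wt25 was found at 9 members (20.0%), where the same rule gave 26.2% of 32093 annotated protein-coding and long non-coding genes. At least 1 window higher in AA10 was found at 8 members (17.8%), against 19.5% of all genes. No member had windows of both directions, which 5.76% of all genes had. All 9 members with at least 2 windows had them in a single direction, as did 72.1% of the 6620 genes with at least 2 windows, so a single direction is also usual outside imprinted genes. The members were longer than genes in general, with a median span of 26.5 kb against 12.8 kb, and a longer span gathers more windows. Per length of DNA, the members and the 20 kb on each side held 7.43 windows per Mb, and the genome 7.60.

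**Figure D1:**
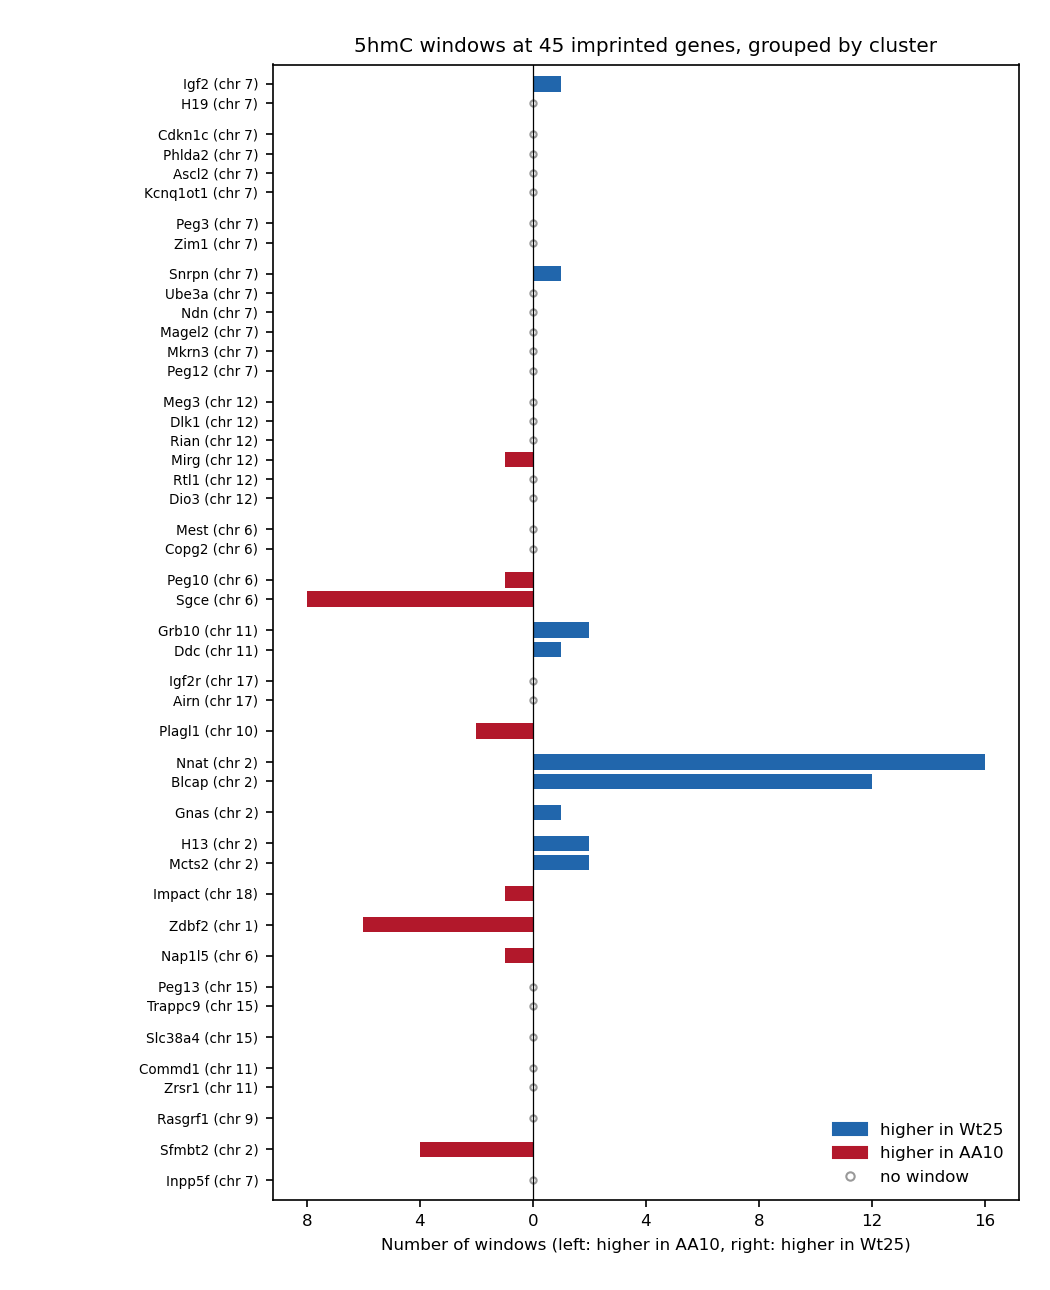
Number of windows at each of the 45 members, with genes of a cluster side by side. Bars to the right count windows higher in Wt25, bars to the left windows higher in AA10, and open circles mark the 28 members without a window. Nnat (16) and Blcap (12) lead on the Wt25 side, and Sgce (8) and Zdbf2 (6) on the AA10 side, and a window shared by neighbours is drawn at each of them.

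Of the windows at members, 53.1% were higher in Wt25 (95% Wilson interval 39.4 to 66.3, n = 49), and of all windows 58.4% were (57.7 to 59.0, n = 20726). These intervals cover the number of windows only, and neighbouring windows are not independent. When windows that touch were joined, 37 regions were left, 18 higher in Wt25 and 19 higher in AA10. The share rests on 1 cluster. Without the Nnat cluster, 7 of 30 windows were higher in Wt25, which is 23.3% (11.8 to 40.9).

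The Nnat cluster on chromosome 2 held 19 windows, all higher in Wt25. Nnat (ENSMUSG00000067786, chr2:157560078-157562522, plus strand) encodes neuronatin, a small membrane protein of the developing brain, is expressed from the paternal copy and lies in an intron of Blcap. Blcap (ENSMUSG00000067787, chr2:157556362-157571274, minus strand) is known as a regulator of apoptosis and is expressed mainly from the maternal copy in brain. By the rule, 16 windows belonged to Nnat and 12 to Blcap, with 9 shared. Inside Nnat lay 4 windows, at 0.223, 0.423, 0.623 and 1.62 kb from its first start, the first 3 touching each other. The window at 0.223 kb held 15 CpGs, the printed one at 0.423 kb held 22 and the one at 0.623 kb held 4. The window at 1.62 kb held 9 CpGs and overlapped untranslated as well as coding sequence of Nnat transcripts. CpG number thus differed widely between touching windows of the same direction.

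Farther out, 8 windows of the Nnat cluster lay upstream of Nnat, between 18.98 and 67.0 kb from its start. Of these, 4 touching windows stood 51.8 to 52.4 kb upstream. Inside Blcap but outside Nnat were windows 3.57 and 7.37 kb from the Blcap start, and upstream of Blcap were 5 more, at 9.83, 10.0, 45.2, 45.4 and 70.2 kb. The windows on both sides of the gene pair had 1 to 6 CpGs each. The neighbourhood shared the direction, with 62 other windows higher in Wt25 and 2 higher in AA10 within 1 Mb of the cluster, and on the whole of chromosome 2 73.9% of windows were higher in Wt25.

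The H13-Mcts2 cluster, also on chromosome 2, held 2 touching windows, both higher in Wt25. Mcts2 (ENSMUSG00000042814, chr2:152687035-152687946, plus strand) is a paternally expressed retrogene inside an intron of H13, which encodes signal peptide peptidase and whose long forms are maternal. The windows stood 0.134 and 0.334 kb upstream of the Mcts2 start and 17.4 and 17.2 kb downstream of that of H13. The nearer one, printed above, held 20 CpGs, and the farther one held 5 and overlapped an untranslated stretch of an H13 transcript by 99 bases. Within 1 Mb, 13 other windows were higher in Wt25 and 6 in AA10.

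At Grb10 (ENSMUSG00000020176, chr11:11930508-12038683, minus strand), which encodes an adaptor that restrains insulin and growth factor signalling, 2 windows were higher in Wt25. Grb10 is maternal in most tissues and paternal in neurons, where transcription begins at inner starts. The printed window stood 11.8 kb downstream of the first start and 0.169 kb upstream of an inner one, with 63.6% G and C and 9 CpGs. The second lay 105 kb downstream of the first start, in an untranslated exon of Grb10, and held 4 CpGs. The list gives that window to Ddc, the decarboxylase of dopamine and serotonin synthesis, whose own start is 35.2 kb away, so Ddc had a window by ID alone. The surroundings went the other way, with 3 other windows higher in Wt25 and 7 higher in AA10 within 1 Mb.

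**Figure D2:**
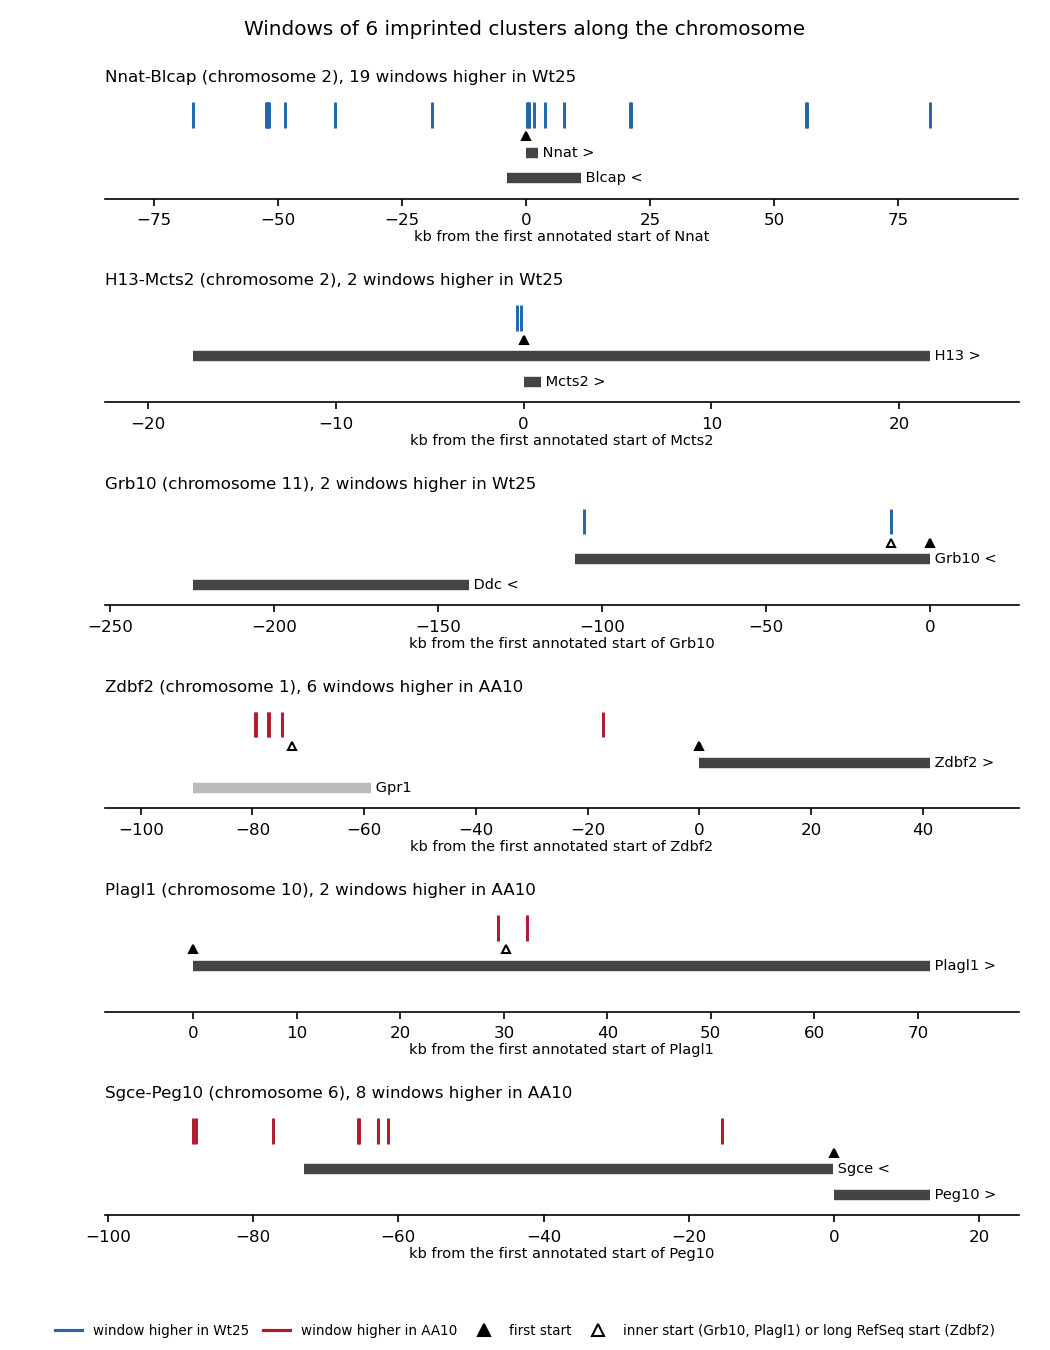
Positions of the windows at 6 imprinted clusters, in kb from the first GENCODE start of the gene named under each axis. Blue strokes are windows higher in Wt25, red strokes windows higher in AA10, dark bars are members with their strand as an arrow, the light bar is Gpr1, filled triangles are first starts and open triangles the inner starts of Grb10 and Plagl1 and the long RefSeq start of Zdbf2. The 2 Mcts2 windows stand just upstream of its start, the Nnat windows spread on both sides of the gene, and 5 of the 6 Zdbf2 windows gather upstream of the long start.

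The other 3 clusters of the Wt25 direction held 1 window each. In Igf2 (ENSMUSG00000048583, chr7:142650766-142666816, minus strand), the paternally expressed fetal growth factor, the printed intronic window stood 1.92 kb from the first start and also lay within the antisense transcript Igf2os. H19, the maternally expressed non-coding RNA of the same cluster, had none, and its nearest window, 86.7 kb away, was this one. In Gnas (ENSMUSG00000027523, chr2:174284320-174346744, plus strand), which encodes the stimulatory G protein alpha subunit and has first exons of opposite parental expression, the window at chr2:174289003-174289200 held 5 CpGs, stood 4.78 kb from the first start and overlapped the antisense RNA Nespas. Between the outermost genes of the Snrpn region lay 3 windows higher in Wt25 and 1 higher in AA10, of which the rule took 1. Snrpn, a paternally expressed splicing protein of the Prader-Willi region, had 1 window by ID alone, 119 kb upstream of its GENCODE start, and 100% of its bases were marked as repeats. The longer Snrpn span of RefSeq added 1 window higher in AA10, so under that annotation Snrpn had both directions.

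Among the clusters of the AA10 direction, the Sgce-Peg10 pair on chromosome 6 led with 8 windows. Sgce (ENSMUSG00000004631, chr6:4674350-4747207, minus strand) encodes epsilon-sarcoglycan, Peg10 (ENSMUSG00000092035, chr6:4747306-4760517, plus strand) a retrotransposon-derived protein needed in the placenta, and both are paternally expressed from starts that face away from each other. Inside Sgce lay 5 windows, 1 at 15.3 kb and 4 between 61.3 and 65.5 kb from its start. Beyond the end of Sgce lay 3 more, at 4.15, 14.8 and 15.2 kb from the gene, which the list gives to the neighbour Casd1. The next windows, 20.2 and 20.6 kb from Sgce, fell just outside the distance used and were higher in AA10 too. Peg10 was reached by the printed window, 15.4 kb upstream of its start. CpG number ranged from 2 to 8 among the 8 windows. All 16 other windows within 1 Mb were higher in AA10, and on chromosome 6 11.97% of windows were higher in Wt25.

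Zdbf2 (ENSMUSG00000027520, chr1:63273265-63314576, plus strand), a paternally expressed zinc finger gene that promotes growth after birth, had 6 windows higher in AA10 and none inside its GENCODE span. A group of 5 windows stood 74.8 to 79.6 kb upstream of the GENCODE start, in an intron of Gpr1, the gene of a chemerin receptor. RefSeq holds a longer Zdbf2 transcript that begins inside Gpr1, and the same 5 windows lay 1.86 to 6.66 kb upstream of that start. Transcription from there in the early embryo is known to set the later paternal methylation upstream of Zdbf2. The sixth window stood 17.2 kb upstream of the GENCODE start, outside any GENCODE gene, with 2 CpGs. It lay between the long RefSeq start and the GENCODE start. In the group of 5, CpG number ranged from 1 to 5, and the printed one, nearest to the long start, had the most. Within 1 Mb, 5 other windows were higher in Wt25 and 11 in AA10.

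Sfmbt2 (ENSMUSG00000061186, chr2:10370510-10595253, plus strand), a paternally expressed Polycomb group gene needed in the placenta, had 4 windows higher in AA10 on chromosome 2, where 73.9% of windows were higher in Wt25. The printed one lay in an intron 5.19 kb downstream of the first start, and 3 stood 74.2, 85.6 and 85.8 kb upstream by ID alone. All 4 held 4 CpGs. Plagl1 (ENSMUSG00000019817, chr10:13060504-13131694, plus strand), a paternally expressed zinc finger factor that slows the cell cycle, had 2 intronic windows higher in AA10, 29.4 and 32.2 kb from its first start. They lay on both sides of inner starts, 0.790 kb upstream of one and 1.69 kb downstream of one, and held 6 CpGs and 1 CpG. Within 1 Mb of Plagl1, 5 other windows were higher in Wt25 and 2 in AA10, and the nearest of the Wt25 windows, 38.5 kb outside the gene, carried the ID of Sf3b5.

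Single windows higher in AA10 were found at Mirg, Impact and Nap1l5. Mirg (ENSMUSG00000097391, chr12:109729764-109749460, plus strand), the maternally expressed RNA at the distal end of the Dlk1-Dio3 microRNA cluster, held its window at chr12:109748603-109748800, in an exon 18.9 kb from its start and 643 bases from the hairpin of Mir3072, whose ID it carried. Impact, a paternally expressed regulator of the translational stress response, had a window 14.6 kb upstream of its start, inside the neighbour Osbpl1a, with 5 CpGs in CpG-rich sequence. Nap1l5, a paternally expressed retrogene of the nucleosome assembly protein family, had 1 window by ID alone, 24.8 kb upstream with 1 CpG.

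In 11 of the 13 clusters with windows, the direction was that of the majority of windows on the chromosome. By definition most windows match the majority of their chromosome, and the same count was not made for other genes. The share higher in Wt25 ran from 11.97% on chromosome 6 to 75.3% on chromosome 7. The exceptions were Plagl1, on chromosome 10 with 63.9% of windows higher in Wt25, and Sfmbt2, on chromosome 2 with 73.9%. Closer in, within 1 Mb and without the members' own windows, the cluster direction differed from the local majority at Grb10 and Snrpn on the Wt25 side, and at Plagl1, Sfmbt2, Impact and Mirg on the AA10 side. The local counts there were small. Whether the direction at a cluster depends on that of its chromosome was not tested.

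**Figure D3:**
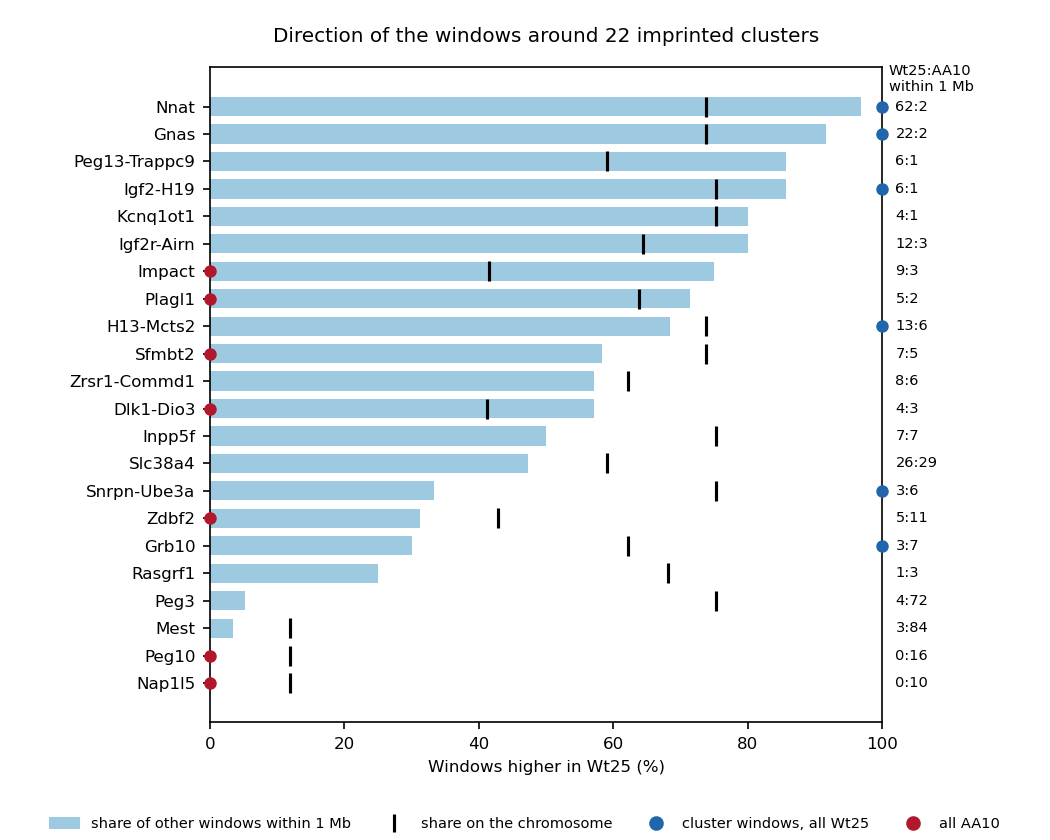
Share of windows higher in Wt25 around each of the 22 clusters. Bars give the share within 1 Mb of the cluster without windows at imprinted genes, with the counts at the right, vertical ticks the share on the whole chromosome, and dots at 100% (blue) or 0% (red) the direction of the cluster's own windows where it has any. Nnat (62 and 2) and Gnas (22 and 2) lie in surroundings higher in Wt25, Mest (3 and 84), Peg3 (4 and 72), Sgce-Peg10 (0 and 16) and Nap1l5 (0 and 10) in surroundings higher in AA10.

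Control regions were placed from annotated starts, within 2 kb of the start of a gene or, for the 4 with paternal methylation, in an interval upstream of one. For a gene with several transcripts, the nearest of all GENCODE and RefSeq starts was used. A distance can thus run to a start away from the control region, as for Airn, whose nearest start was not its first. For Snrpn the start used was the far end of the longer RefSeq span. The Snrpn window taken by ID stood 119 kb upstream of the GENCODE start. Of 21 such regions, 5 had a window within 2 kb, 10 windows in all. The 17 maternally methylated regions gave 4 of these: Nnat with 4 windows, Mcts2 with 2 and Grb10 with 1, all higher in Wt25, and Plagl1 with 2, both higher in AA10. The nearest windows were 0.161, 0.134, 0.169 and 0.790 kb from a start in that order. The fifth was the interval up to 20 kb upstream of Zdbf2, paternally methylated, with 1 window higher in AA10. Its width means that it takes in every window the rule could give Zdbf2 on that side by distance. As given above, its methylation follows transcription in the early embryo and is not set in the germline. The long RefSeq start of Zdbf2 inside Gpr1 was not among the 21 regions, and a window higher in AA10 stood 1.86 kb upstream of it. A window within 2 kb of any GENCODE start was present at 7 of the 45 members (15.6%), namely Igf2, Mirg, Grb10, Plagl1, Nnat, Blcap and Mcts2, and at 8.27% of all genes. Every transcript start of a gene counted, so genes with more starts have more chances. Neither gene length nor number of starts was matched.

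The other 16 control regions had no window within 2 kb. Gnas came closest, with its window 3.67 kb from an inner start of Nespas, followed by Impact at 13.4 kb, Peg10 at 15.4 kb and Nap1l5 at 24.8 kb. For 12 regions the nearest window was over 50 kb away. These were the Rasgrf1 upstream interval at 58.8 kb, Kcnq1ot1 at 72.2 kb, Snrpn at 77.1 kb, Airn at 81.0 kb, the H19 upstream interval at 82.8 kb, Inpp5f at 92.8 kb, Zrsr1 at 115 kb, Peg3 at 128 kb, Slc38a4 at 174 kb, Mest at 180 kb, the Meg3 upstream interval at 218 kb and Peg13 at 327 kb. Regions often followed in work on imprints, at H19, Meg3, Kcnq1ot1, Snrpn, Peg3 and Mest, were thus, as placed here, each over 50 kb from a listed window. The genome held 7.60 windows per Mb, and distances of other sites were not computed, so these distances are not shown to be unusual. For a region without a window, equal 5hmC in both lines, few reads and removal by the authors' filters cannot be told apart.

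**Figure D4:**
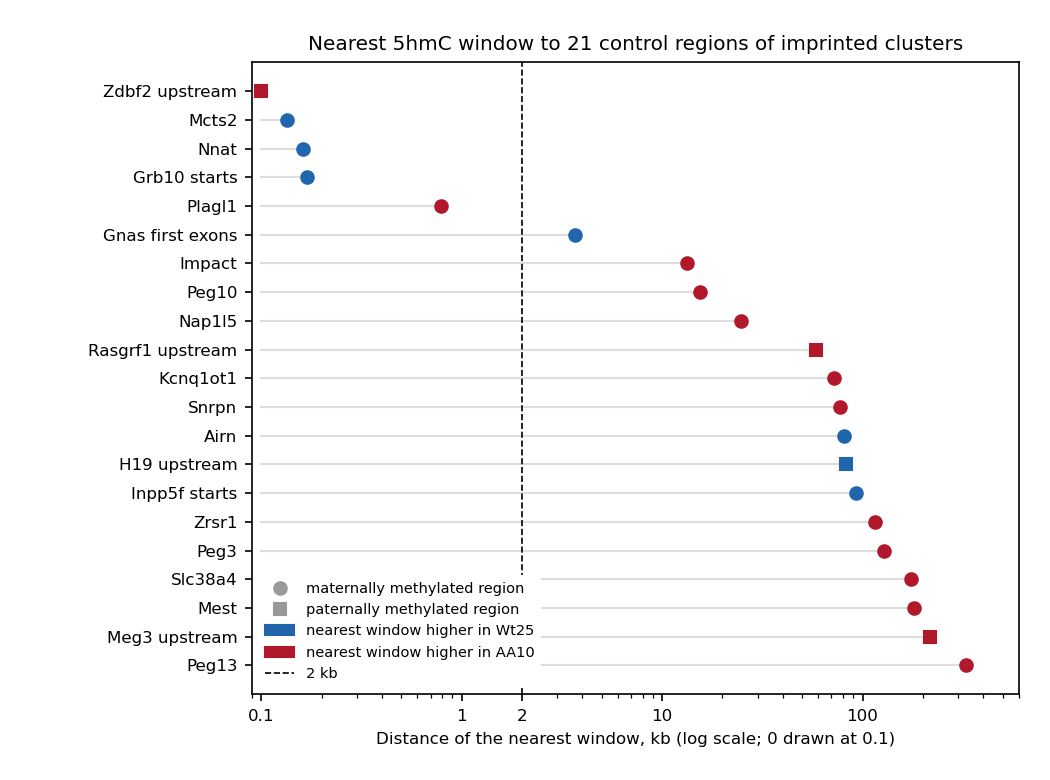
Distance of the nearest window to each of 21 control regions, in kb on a log scale, with 0 drawn at 0.1. Circles are maternally and squares paternally methylated regions, the colour gives the line with the higher 5hmC in that window, and the dashed line marks 2 kb. Nnat, Mcts2, Grb10, Plagl1 and the Zdbf2 interval lie left of the line and 12 regions lie beyond 50 kb.

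No window was found at 28 members, and 9 clusters had none at any member. The Kcnq1ot1 cluster was empty at the non-coding RNA Kcnq1ot1 and at its targets Cdkn1c, an inhibitor of cyclin-dependent kinases, Phlda2, a brake on placental growth, and Ascl2, a trophoblast transcription factor. Both zinc finger genes Peg3 and Zim1 were empty, although 4 windows higher in Wt25 and 72 higher in AA10 lay within 1 Mb. Mest, a hydrolase family gene, and its neighbour Copg2, a coat protein of vesicles, were empty in surroundings with 3 windows higher in Wt25 and 84 higher in AA10. The growth factor clearance receptor Igf2r and its antisense silencer Airn had none, with the nearest window 36.7 kb from Airn and higher in Wt25. The non-coding RNA Peg13 and its host Trappc9, the amino acid transporter Slc38a4, the splicing factor retrogene Zrsr1 and its host Commd1, the Ras activator Rasgrf1 and the inositol phosphatase Inpp5f had none either.

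In clusters with a window elsewhere, the remaining genes were empty as well. The Snrpn region had none at Ube3a, a ubiquitin ligase, at Ndn and Magel2 of the MAGE family, at Mkrn3, a RING finger gene, or at Peg12, of the Frat family. The Dlk1-Dio3 region had none at Dlk1, a Notch ligand-like protein, Meg3, the maternal non-coding RNA, Rian, a host of small nucleolar RNAs, Rtl1, a retrotransposon-like gene of placenta and muscle, or Dio3, which inactivates thyroid hormone. Over the 28 members, the nearest window lay between 36.7 kb (Airn) and 646 kb (Mkrn3) away, with a median of 138 kb, and it was higher in Wt25 for 11 and in AA10 for 17.

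The windows at members had 4.57 ± 4.29 CpGs (SD over 49 windows), and all windows 3.21 ± 2.46 (SD over 20726). The medians were 4 and 3, and the SD describes the spread of single windows. At least 10 CpGs were held by 3 of the 49 (6.12%), at Nnat and Mcts2 and all higher in Wt25, and by 2.22% of all windows. CpG-rich sequence surrounded 6 of the 49 (12.2%), namely 2 at Nnat, 2 at Mcts2 and 1 each at Grb10 and Impact, and 1.05% of all windows. The 2 at Nnat touch, as do the 2 at Mcts2, so the 1 kb around them is largely the same sequence. The windows at members were chosen for their position at genes, and all windows were not matched to them in this. Windows higher in Wt25 held 5.42 ± 5.53 CpGs (SD, n = 26) and those higher in AA10 held 3.61 ± 1.88 (SD, n = 23), with a median of 4 in both. The 3 windows with 15, 20 and 22 CpGs are among the former. In the whole lists the means were 3.25 for windows higher in Wt25 and 3.16 for those higher in AA10. Repeat-marked bases made up 16.8% of the members' windows and 31.9% of all windows.

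The letters of the ZFP57 motif, TGCCGC on either strand, were counted in the windows. The motif holds a CpG, so windows with more CpGs have more chances to contain it. It was found in 5 of the 49 windows (10.2%) and in 2.58% of all windows. The Mcts2 window printed above and the Nnat window at 0.223 kb held 3 copies each, and the Nnat window at 1.62 kb, the untranslated Grb10 window and the printed Sfmbt2 window held 1 each. By position in GENCODE, 21 of the members' windows lay in introns, 21 outside genes, 3 in coding exons, 2 in untranslated exons and 2 in non-coding exons. All 3 coding windows were those of Nnat, and 10 of the 14 intronic windows higher in AA10 were the 5 inside Sgce and the 5 in the intron of Gpr1.

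**Figure D5:**
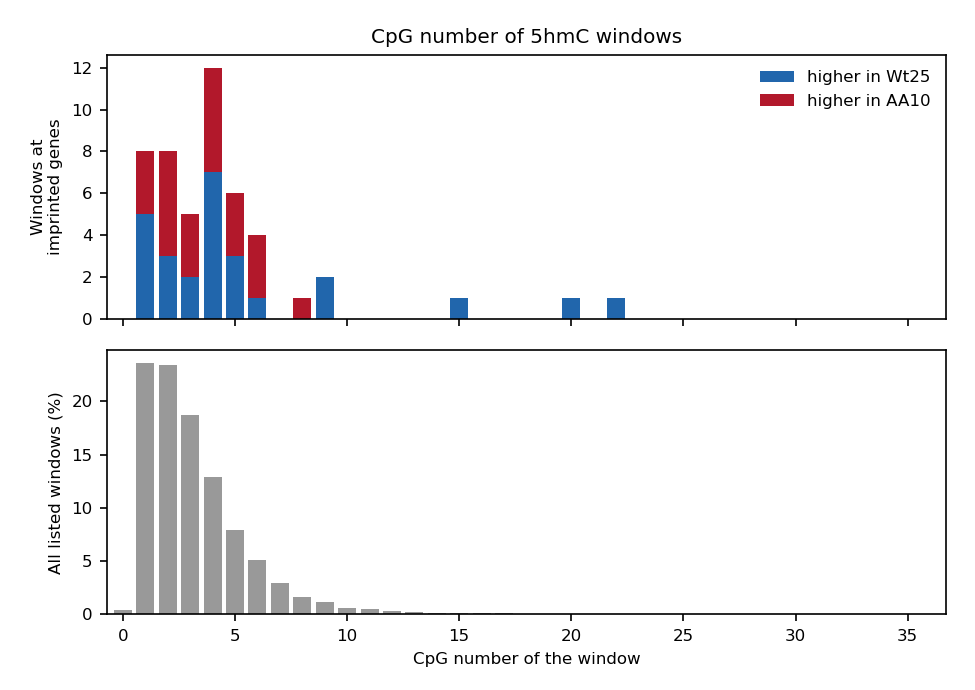
CpG number of windows, as the number of windows at imprinted genes by direction (top) and as the percent of all 20726 windows (bottom). Most windows at members hold 1 to 6 CpGs like the rest, and the 3 with 15, 20 and 22 CpGs, at Nnat and Mcts2, are higher in Wt25.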

How the data were processed

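5hmC-DIP was measured in 3 libraries each of Wt25 and AA10 mouse ESCs. The authors aligned reads uniquely to GRCm38 with STAR and removed duplicates with Picard. They used MEDIPS to compare the libraries of both lines over 200 bp bins (P below 0.05 and at least 1-fold change). They state no correction of this P for the number of bins, so single windows call for caution. Bins that overlapped IgG-DIP peaks or held simple repeats were removed, and genes were annotated with HOMER. Tool versions are not given in the sources used here. The deposited lists give a chromosome, start, end (198 bases per window) and, for all but 773 windows, an Ensembl ID, with no value per window, so no test between lines was possible from them and the depth behind a window is unknown. RNA-seq and H3K27ac libraries were not analysed here.

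Gene spans and features came from GENCODE vM21 and, as an alternative, RefSeq. Shares of windows higher in Wt25 at members and over all windows carry 95% Wilson intervals. Every member is accounted for, windows are described singly for members with up to 4, and genes of the other lists are named with at least 3, with exceptions stated there. Members, clusters, control regions and gene lists were chosen with earlier results of these data known, and clusters and control regions come from textbook knowledge. Distance limits, joining of windows, annotation, repeats and single chromosomes were varied. The assignment was tested on simulated windows, and 8 of 8 checks gave the known answer. Python 3.11.15, numpy 2.4.6, pandas 2.3.3, pysam 0.24.0 and matplotlib 3.10.9 were used.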

Additional observations from a re-analysis of the deposited data

How the results depend on the processing

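Across other distances, annotations, joined windows and single chromosomes left out, the number of members with a window ranged from 13 to 19, the clusters without one from 6 to 11, and the share of windows higher in Wt25 from 48.6 to 65% in the settings planned. Leaving out a chromosome also removes its clusters from the count, and the 6 came from leaving out chromosome 7. With all clusters kept, the lowest count was 7, within 50 kb. The number of windows was 29 by position alone, where those assigned by ID alone drop out. Without the Nnat cluster, a setting chosen after the data had been seen, 30 windows and a share of 23.3% were left. Clusters with windows of both directions, also counted after the data had been seen, rose from 0 to 1 within 50 kb (Plagl1) and to 1 with RefSeq spans (Snrpn). Control regions had 9 windows within 1 kb and 12 within 5 kb. No replicate could be left out and no stricter threshold set, since the deposited lists used here carry no value per library or window. No paired analysis was possible because the lists hold no library columns.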

Other observations

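Imprinted genes beyond the 45 and the factors that maintain imprints were counted by the same rule. Of 41 other imprinted genes, 24 had a window (58.5%; 39.9% of all genes), 10 of them a window higher in Wt25 (26.2% of all genes), 17 one higher in AA10 (19.5%) and 3 both (5.76%). These genes were not matched to all genes in length. Their 48 windows, 14 higher in Wt25 and 34 higher in AA10, included 8 already counted at a member, among them all 5 of Gpr1. Ppp1r9a, an actin-binding phosphatase partner next to Peg10, had 5 windows, all higher in AA10. Atp10a, a lipid flippase next to Ube3a, had 1 higher in Wt25 and 5 higher in AA10. Cobl, an actin nucleator next to Grb10, had 2 and 3, and Adam23, a disintegrin family gene next to Zdbf2, had 2 of each direction.

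Of 17 imprint factors, 10 had a window (58.8%, against 39.9% of all genes). Windows higher in Wt25 were found at 5 (26.2% of all genes) and windows higher in AA10 at 5 (19.5% of all genes). None had both, which 5.76% of all genes had. The factors were not matched to all genes in length either. Dnmt3a, the de novo DNA methyltransferase that sets germline imprints, had 10 windows, all higher in Wt25. Arid4b, a chromatin factor known to act on the Prader-Willi imprint, had 3, all higher in Wt25. The other 8 factors with a window had 1 or 2 each. Dnmt1 (2 windows), Ctcfl and Setdb1 (1 each) had windows higher in Wt25, and Zfp57 (2), Zfp445, Smchd1, Dnmt3l and Kdm1b (1 each) windows higher in AA10, and these were named after their counts were seen. Trim28, Ctcf, Dppa3, Uhrf1 and Dnmt3b were among the 7 factors without a window. No expression was measured in these lists, so no level of any factor is given here.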
